A study of Mus musculus with 6 samples.

Results

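The Hox cluster genes measured in mouse intestinal tumors of the duodenum and the cecum are described here. They were taken as every probe set, a group of array probes read together as one value, whose platform annotation names exactly 1 gene of the Hoxa, Hoxb, Hoxc or Hoxd cluster. This gave 37 of 22690 probe sets, for 31 of the 39 Hox cluster genes in the RefSeq gene table, dim probe sets included. Another 3 probe sets named a pair of Hox genes and were left out.

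Each of the 6 arrays held RNA from 1 tumor of a different mouse, with 3 duodenal and 3 cecal tumors. Mice of both groups carried the Apc1638N allele, a mutation of Apc under which intestinal tumors form. They were also Rb1 deficient in both groups, Rb1 being the gene of the retinoblastoma protein, a brake on the cell cycle. The labels used here give neither age nor sex, nor how the loss of Rb1 was brought about. The duodenal group could hold tumor tissue from the pylorus, the outlet of the stomach, and no normal tissue was analysed here.

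Hox genes encode homeodomain transcription factors that lie in 4 chromosomal clusters. Within a cluster they are numbered by paralog group, and low numbers are used toward the head and high numbers toward the tail. In the gut, as in the body axis, nested Hox domains mark position in epithelium and mesenchyme, and the Cdx factors act upstream of several of them. Many Hox proteins bind DNA together with the TALE homeodomain proteins Pbx, Meis and Pknox.

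Promoter sequence was available for some of these genes, and the windows shown are those of the Hoxa genes that varied most between duodenal tumors and, for contrast, of Hoxd9, which did not. The sequences come from RefSeq on build GRCm38.p6 and hold the 250 bases before an annotated start, 5′ to 3′ on the strand of the gene. Capitals mark TTTATG, letters found in sites of Cdx and posterior Hox proteins, searched on both strands. The lines for Hoxa5, Hoxa9, Hoxa10 and Hoxd9 hold no capitals because the letters do not occur there. The windows are chr6:52204588-52204837 (minus strand) for Hoxa5, chr6:52218574-52218823 (minus) for Hoxa7, chr6:52227371-52227620 (minus) for Hoxa9, chr6:52234940-52235189 and chr6:52240855-52241104 (minus) for 2 annotated starts of Hoxa10, and chr2:74697513-74697762 (plus) for Hoxd9.
Hoxa5: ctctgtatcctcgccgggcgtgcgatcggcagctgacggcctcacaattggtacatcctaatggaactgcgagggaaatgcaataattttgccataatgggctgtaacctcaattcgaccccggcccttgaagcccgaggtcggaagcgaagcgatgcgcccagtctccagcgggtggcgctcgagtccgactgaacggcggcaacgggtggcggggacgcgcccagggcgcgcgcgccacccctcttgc
Hoxa7: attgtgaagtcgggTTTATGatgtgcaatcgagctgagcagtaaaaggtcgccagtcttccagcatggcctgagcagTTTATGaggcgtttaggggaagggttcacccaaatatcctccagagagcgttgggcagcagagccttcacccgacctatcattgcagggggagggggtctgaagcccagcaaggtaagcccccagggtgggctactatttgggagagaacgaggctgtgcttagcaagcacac
Hoxa9: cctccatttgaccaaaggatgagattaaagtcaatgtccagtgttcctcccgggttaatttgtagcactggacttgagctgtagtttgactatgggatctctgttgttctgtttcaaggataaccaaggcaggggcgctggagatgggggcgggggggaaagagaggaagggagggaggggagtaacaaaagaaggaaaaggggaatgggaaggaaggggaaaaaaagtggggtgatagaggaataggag
Hoxa10, first start: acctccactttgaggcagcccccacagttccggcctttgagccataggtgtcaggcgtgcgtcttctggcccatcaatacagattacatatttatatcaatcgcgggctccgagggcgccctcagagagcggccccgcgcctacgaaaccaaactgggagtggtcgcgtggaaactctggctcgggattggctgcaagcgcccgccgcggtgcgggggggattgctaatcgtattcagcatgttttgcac
Hoxa10, second start: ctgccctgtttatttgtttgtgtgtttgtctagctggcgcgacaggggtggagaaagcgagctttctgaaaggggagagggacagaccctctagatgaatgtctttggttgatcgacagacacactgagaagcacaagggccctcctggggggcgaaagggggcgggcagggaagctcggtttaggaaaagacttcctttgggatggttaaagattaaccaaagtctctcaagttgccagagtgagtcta
Hoxd9: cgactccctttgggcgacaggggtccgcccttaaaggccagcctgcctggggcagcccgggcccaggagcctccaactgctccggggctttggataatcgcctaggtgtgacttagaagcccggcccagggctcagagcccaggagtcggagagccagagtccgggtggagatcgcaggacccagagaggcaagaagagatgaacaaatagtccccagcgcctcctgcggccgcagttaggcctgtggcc

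The table held such windows for 18 of the 31 genes, 20 windows in all. It held none for Hoxb2, Hoxb3, Hoxb5, Hoxb6 and Hoxb9, the tested Hoxb genes. TTTATG occurred in 2 of the 20, those of Hoxa7 and of 1 start of Hoxd11, and in 10.8% of 32851 windows of all genes. With the windows of Hoxa6, Hoxb8, Hoxd3 and Hoxd4, which have no probe set of their own, it occurred in 5 of 24 Hox windows. The longer TTTATGG, which contains it, occurred in none of the 20, in the window of Hoxd4 and in 2.43% of all windows. Hoxa7 held the letters at 2 places. The 20 windows of the measured Hox genes had a median GC content of 59.2%, against 52.4% over all windows. Their median number of CpG dinucleotides was 13, against 6. Genes of the varying stretch differed in this respect, since Hoxa5 held 28 CpG dinucleotides and Hoxa9 held 3. These matches describe letters and show no binding.

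The arrays had been scaled by the authors to a common mean, and their median intensities were 164.6 to 181.8. A probe set was called bright on an array when its intensity passed the array's 40th percentile, 92.4 to 100.6. Markers listed for the sites are given beside the labels. The lists were chosen with earlier results of these data known, so they are no independent check of the labels. All 8 tested probe sets of the large intestine list were higher in cecal tumors and all 13 of the stomach and pylorus list were lower. All 10 tested probe sets of the epithelial list were bright in every tumor.

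Most Hox probe sets were dim in duodenal tumors, and more of them were bright in cecal tumors. Of the 37 probe sets, 14 to 15 were bright in each cecal tumor, whereas 0, 5 and 1 were bright in duodenal tumors 1, 2 and 3. All 14 that were bright on all 3 cecal arrays belonged to the Hoxa, Hoxb and Hoxd clusters, with 7, 5 and 2 probe sets. No Hoxc probe set was bright in any tumor. Bright in all cecal and no duodenal tumors were 8 of the 37, a pattern of 0.729% of all probe sets, and the reverse pattern, of 0.743%, occurred in 0. The grid of all probe sets by tumor shows this division. Probe sets bind with different strength, so their intensities do not rank the genes against each other.

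**Figure D1:**
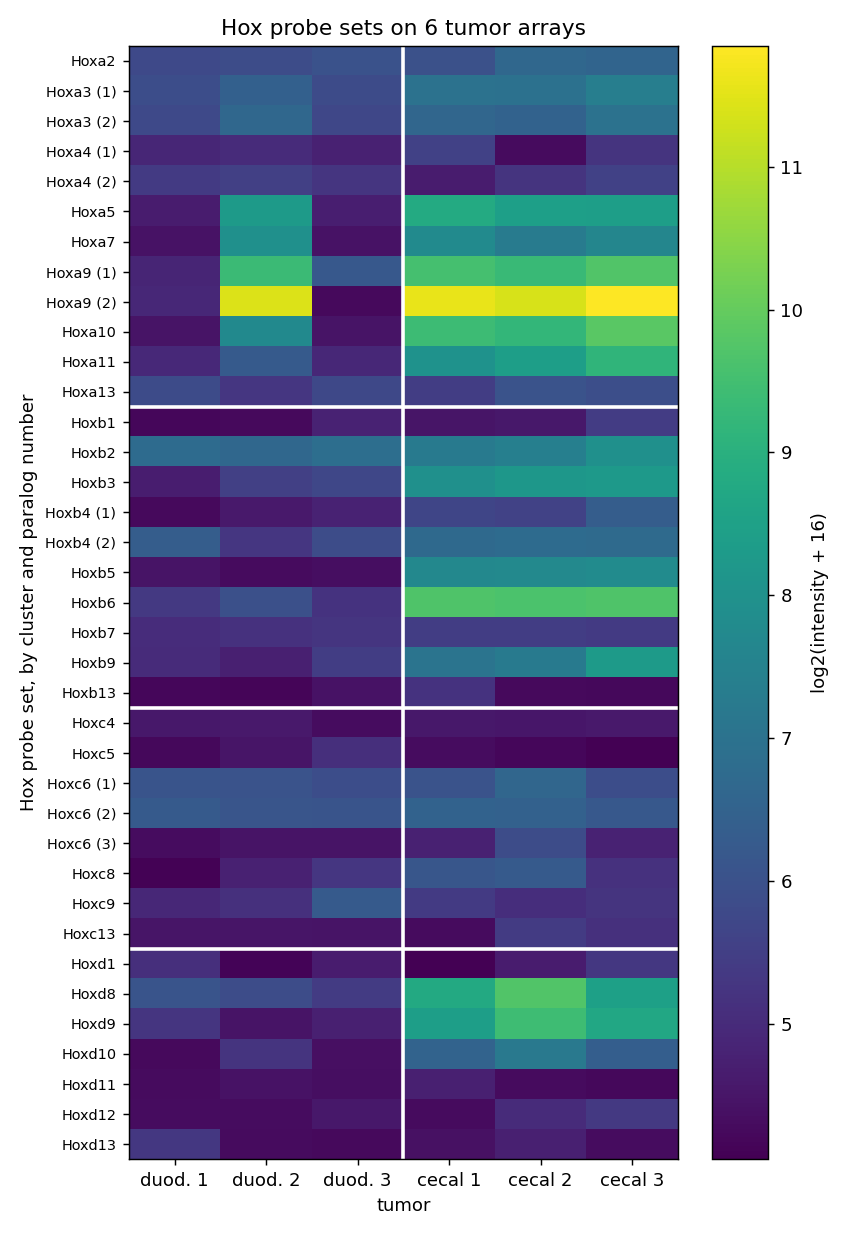
Intensity of 37 Hox probe sets (rows, by cluster and paralog number, with white lines between clusters) in 3 duodenal and 3 cecal tumors (columns), as log2(intensity + 16) by colour. Duodenal tumor 2 is near the cecal tumors in Hoxa5, Hoxa7 and Hoxa9, between the sites in Hoxa10 and below every cecal tumor in the bright Hoxb and Hoxd genes.

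The sites were compared by limma on log2(intensity + 16), with Benjamini-Hochberg adjustment over 13866 probe sets bright on at least 3 of the 6 arrays. Folds are cecal minus duodenal and understate the change of dim genes. The filter kept 14 of the 37 Hox probe sets, for 13 genes. Each of the 14 was bright on all 3 cecal arrays, so the filter selected members that are high in the cecum and their common direction is no support. Of the 14, 9 were higher in cecal tumors and 0 were lower (limma adjusted p; 14 and 0 at an unadjusted p under 0.05), where 9.3% of all tested probe sets passed, 5.24% higher and 4.07% lower.

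A fit without the filter covers all members. There 10 of the 37 Hox probe sets were higher in cecal tumors and 0 lower (limma; 18 and 0 at an unadjusted p under 0.05), against 2.81% and 2.22% of 22626 probe sets (5.03% together). The fold was positive for 33 of the 37 and negative for 4, and its median was 0.73, while 46.5% of all probe sets had a positive fold and their median was -0.025. The values of the 2 sites did not overlap for 16 of the 37, always with the cecal tumors higher, where 24.2% of all probe sets separated and 11.4% did so in that direction. With the replicate number as a block, 9 of the 14 tested members were higher and 0 lower (limma), beside 11.3% of all tested probe sets, 6.12% higher and 5.21% lower. These 14 passed the filter through the cecal arrays, so their direction is again no support. In bulk tumors, fewer cells of a type and less RNA per cell cannot be told apart.

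**Figure D2:**
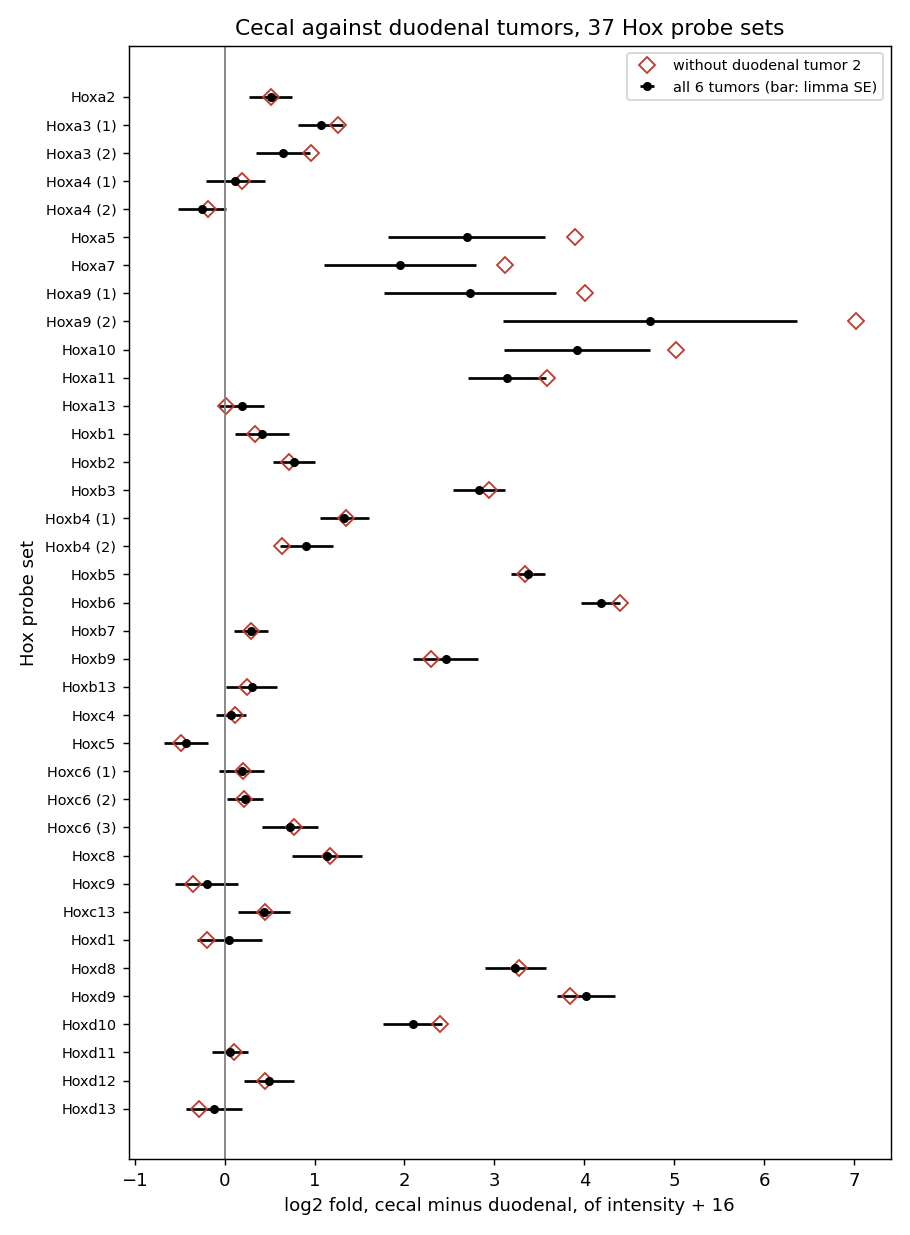
Log2 fold of cecal minus duodenal tumors for 37 Hox probe sets from the limma fit without the filter (black points; bars are limma standard errors, 3 tumors per site) and the same difference of means without duodenal tumor 2 (red diamonds). Hoxa9 moves from 4.73 to 7.02 when that tumor is left out, whereas Hoxb6, Hoxd8 and Hoxd9 shift little.

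In the Hoxb cluster, 4 of the 5 probe sets bright in all cecal tumors were higher there (limma), beside 5.24% of all tested probe sets. These 5 passed the filter through the cecal arrays, so their direction is no support. Hoxb6, a central member, had an intensity of 24.6, 45.6 and 20.9 in duodenal tumors 1 to 3 and of 811.2, 782.5 and 815.3 in cecal tumors 1 to 3. It was dim in every duodenal tumor and nearly constant in the cecum. The fold, taken against the 40th percentile as a floor for the dim site, was at least 8-fold (fitted log2 fold 4.18 ± 0.21 SE, limma adjusted p = 2.47e-05). Hoxb5 had 6, 3.6 and 4.4 in the duodenal tumors, against 191.2, 193.8 and 209.6 in the cecal ones. This was at least 1.97-fold higher in the cecum (limma adjusted p = 0.000109), and the cecal values spanned only 1.1-fold from lowest to highest.

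Hoxb3, of the anterior part of the cluster, gave 9.7, 29.8 and 36.6 in the duodenal tumors, against 232.8, 275.4 and 293.3 in the cecal ones. The groups were far apart, at least 2.65-fold (limma adjusted p = 0.000918). Hoxb9, the most posterior Hoxb gene that was bright, gave 16.1, 10.5 and 28.1 in the duodenal tumors, against 115.7, 135 and 297.4 in the cecal ones. Cecal tumor 3 was the highest, and the sites differed at least 1.66-fold (limma adjusted p = 0.0056).

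Hoxb2 was near the brightness level in the duodenal tumors, with 93.7, 84.5 and 101.1, and above it in the cecal ones, with 135, 154.4 and 231.8. The values did not overlap, but the difference did not pass (log2 fold 0.77 ± 0.22 SE, limma adjusted p = 0.0715). With limma array weights, the adjusted p was 0.0377.

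The remaining Hoxb probe sets were dim in all tumors. Of 2 for Hoxb4, one had 3, 8 and 12 in the duodenal tumors, against 35.8, 31.8 and 65.8 in the cecal ones. It passed in the fit without the filter (log2 fold 1.33 ± 0.27 SE, limma adjusted p = 0.0324). The other Hoxb4 probe set reached at most 93.2 and did not pass (limma adjusted p = 0.132 without the filter). Hoxb1, Hoxb7 and Hoxb13 stayed between 1.7 and 28.1.

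**Figure D3:**
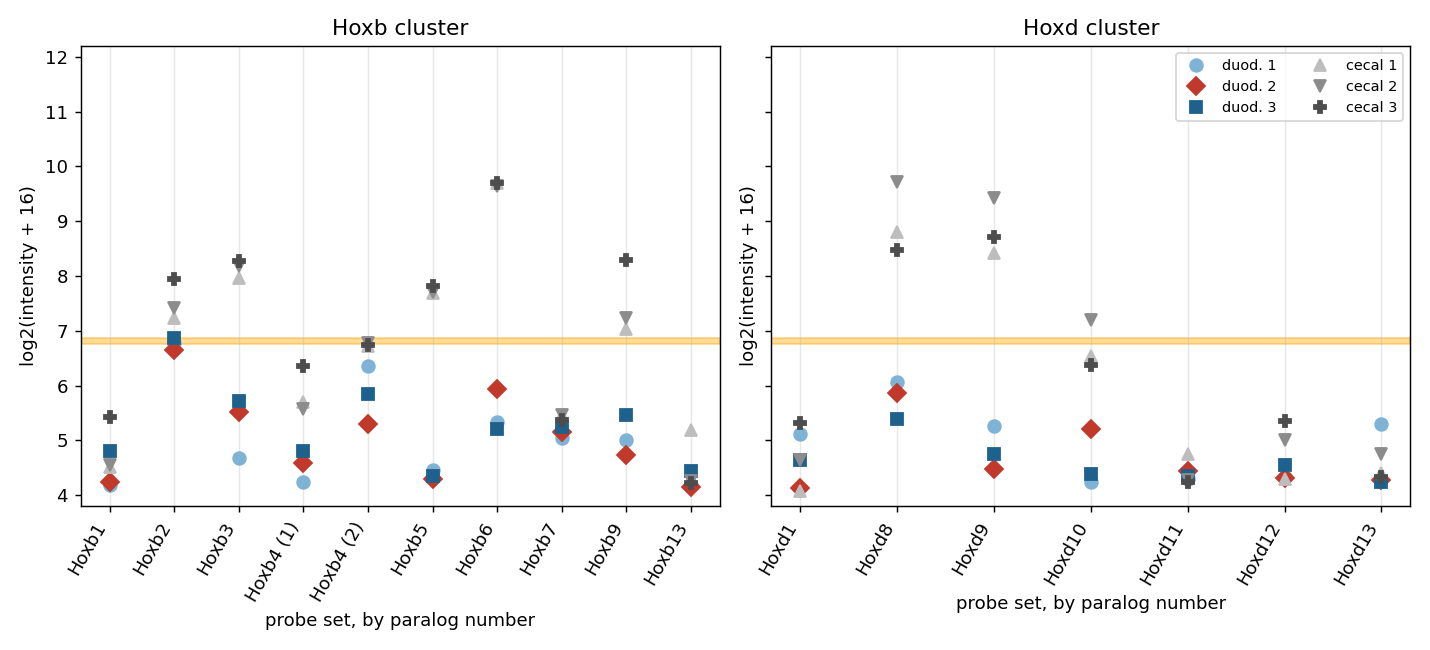
Probe sets of the Hoxb (left) and Hoxd (right) clusters by paralog number against log2(intensity + 16). Each symbol is 1 tumor and the orange band is the range of the arrays' 40th percentiles; duodenal tumor 2 (red diamonds) lies with the other duodenal tumors, for example at 45.6 for Hoxb6 and 6.2 for Hoxd9.

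In the Hoxd cluster the bright genes lay in the middle. Hoxd8 had 51, 42 and 26 in the duodenal tumors, against 429.3, 827.7 and 341.5 in the cecal ones, with cecal tumor 2 the highest. The difference was at least 4.93-fold (limma adjusted p = 0.000918). Hoxd9 had 22.4, 6.2 and 10.9 in the duodenal tumors, against 324.9, 669.3 and 404.9 in the cecal ones. Cecal tumor 2 was again highest and the sites did not overlap, at least 4.43-fold apart (limma adjusted p = 0.000271).

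Hoxd10, next to Hoxd9 on the chromosome, gave 3, 21.1 and 4.9 in the duodenal tumors, against 76.9, 131 and 67.3 in the cecal ones. Only cecal tumor 2 was above the brightness level, so the probe set did not enter the filtered test. Without the filter it was higher in the cecum (log2 fold 2.09 ± 0.33 SE, limma adjusted p = 0.0125). The genes at both ends of the cluster, Hoxd1, Hoxd11, Hoxd12 and Hoxd13, were dim in all tumors, between 0.8 and 24.9. None of these 4 passed without the filter, and their values overlapped between the sites.

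The Hoxa cluster gave the widest differences within a site. Hoxa9, a posterior gene also known for its role in blood progenitors, had 2 probe sets. The brighter had 14.2, 2768.4 and 3.1 in duodenal tumors 1 to 3 and 3082.1, 2627.5 and 3662 in cecal tumors 1 to 3. Duodenal tumor 2 thus lay within the cecal range, and the sites overlapped. With dim values set to the 40th percentile, it was at least 27.5-fold above both other duodenal tumors. The second had 12.9, 645.3 and 56.8 in the duodenal tumors, against 727.4, 626.1 and 831.6 in the cecal ones, again with duodenal tumor 2 inside the cecal range. Neither passed (log2 folds 4.73 ± 1.61 and 2.73 ± 0.95 SE, limma adjusted p = 0.117 and 0.124).

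Hoxa5 and Hoxa7 were likewise bright in duodenal tumor 2 alone of the duodenal tumors. Hoxa5 had 9.1, 298.2 and 9.9 in the duodenal tumors, against 434.3, 335.6 and 329.4 in the cecal ones. Duodenal tumor 2 was just below the lowest cecal tumor, at 81.4% of the cecal mean, and the difference between sites did not pass (log2 fold 2.69 ± 0.86 SE, limma adjusted p = 0.0981). Hoxa7 had 5.7, 232.1 and 5.8 in the duodenal tumors, against 203.2, 140 and 181.1 in the cecal ones. Here duodenal tumor 2 exceeded every cecal tumor, at 133% of the cecal mean (log2 fold 1.95 ± 0.84 SE, limma adjusted p = 0.213).

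For Hoxa10 and Hoxa11, toward the posterior end, the same tumor was below every cecal tumor. Hoxa10 had 6, 201.6 and 6.1 in the duodenal tumors, against 654.3, 571.7 and 917.3 in the cecal ones. Duodenal tumor 2 was bright but at 28.2% of the cecal mean, and the sites differed (log2 fold 3.92 ± 0.79 SE, limma adjusted p = 0.0191). Hoxa11 had 14.8, 60.8 and 14.4 in the duodenal tumors, against 242.2, 326.3 and 546.7 in the cecal ones. Duodenal tumor 2 was above the other duodenal tumors yet dim, at most 26.9% of the cecal mean, and the sites were at least 3.5-fold apart (limma adjusted p = 0.00322). Hoxa13, at the end of the cluster, was dim in all tumors, between 22.7 and 49.8.

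On the anterior side the rise in duodenal tumor 2 was small. Hoxa3, by a probe set whose _s_ suffix means that it may bind related transcripts, had 43.6, 70.1 and 40.5 in the duodenal tumors, against 111.9, 107.8 and 152.6 in the cecal ones. The cecal tumors were higher without overlap (log2 fold 1.07 ± 0.25 SE, limma adjusted p = 0.0322). A second Hoxa3 probe set had 38.9, 85 and 36.2 in the duodenal tumors, against 82.9, 73.8 and 110 in the cecal ones, with overlap, and was not tested under the filter. Hoxa2 and both Hoxa4 probe sets stayed dim in all tumors, between 3.3 and 85.

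**Figure D4:**
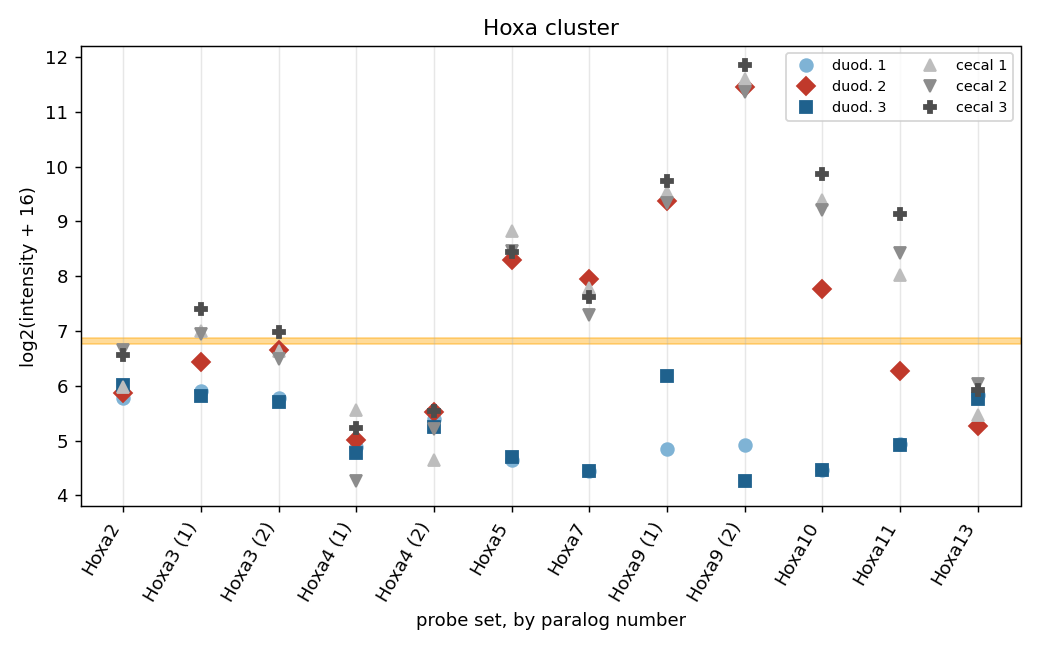
Probe sets of the Hoxa cluster by paralog number against log2(intensity + 16), with 1 symbol per tumor and the range of the arrays' 40th percentiles as an orange band. Duodenal tumor 2 (red diamonds) lies with the cecal tumors for Hoxa5, Hoxa7 and Hoxa9, between the sites for Hoxa10 and Hoxa11, and duodenal tumors 1 and 3 lie low throughout.

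Several calls in the Hoxa cluster changed when 1 tumor was left out, whereas Hoxa11 passed in every such fit. Without duodenal tumor 2, the Hoxa5, Hoxa7 and both Hoxa9 probe sets passed, with limma adjusted p of 0.0001, 0.000649, 0.000908 and 1.04e-05, and 13 of the 14 tested Hox probe sets were higher in cecal tumors. Among all tested probe sets 8.61% passed in that fit, 4.33% higher and 4.28% lower. The filter kept these 14 through the cecal arrays, and duodenal tumor 2 was high in several of them, so this count is no support. Without the filter and that tumor the count was 14 of 37 higher and 0 lower, against 4.75% of all probe sets, 2.25% higher and 2.5% lower. The call of Hoxa10 was lost without each of the other 5 tumors (limma adjusted p = 0.0526 to 0.0753). That of Hoxa3 was lost likewise (0.0787 to 0.101) and also without the filter (0.0505).

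With dim values set in the same way, duodenal tumor 2 exceeded both other duodenal tumors at least 2.96-fold in Hoxa5, 2.31-fold in Hoxa7, 6.41-fold in the second Hoxa9 probe set and 2-fold in Hoxa10. Over all 22626 probe sets, those at least 8-fold above both other tumors of a site were counted, by a threshold and a floor chosen after the values were seen. Duodenal tumor 2 had 11 (0.0486%), of which 1 was a Hox probe set, the brighter of Hoxa9. The other tumors had 0 to 5, none of them Hox, with 0.0221% in duodenal tumor 1, 0.00884% each in duodenal tumor 3 and cecal tumors 2 and 3, and 0% in cecal tumor 1. Another 8 probe sets were at least 8-fold lower in duodenal tumor 2, against 0 to 3 in the others, again none of them Hox. Its tested Hoxb and Hoxd probe sets stayed below every cecal tumor, with Hoxb5 at 3.6, Hoxb6 at 45.6 and Hoxd9 at 6.2. All 3 were dim, so they were at most 50.5%, 12.5% and 21.5% of the cecal means. Car1, a carbonic anhydrase of the large intestine, was at 10.1 there and at 10672.3 to 11498.6 in cecal tumors. Summed over the brightest probe set of each gene, the large intestine markers reached 649 in that tumor, the lowest of all 6, and 31655 to 42491 in cecal tumors. Members of that list went both ways among the duodenal tumors. Retnlb was 24 in duodenal tumor 2, against 587.7 and 371.9 in duodenal tumors 1 and 3. Car1, Cyp2c55 and Saa1 were also lowest there. Guca2a was highest there, at 506.2 against 322.9 and 236.7, as was Aqp8, at 65.6 against 25.3 and 39.9. Hao2 lay between.

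Duodenal tumor 2 differed from the other duodenal tumors in further respects. Xist, the RNA of the inactive X chromosome, was at 3608.5 in duodenal tumor 2 and 3010.9 in cecal tumor 2 and at most 17.5 in the others by 1 of its probe sets, and the other two split the tumors alike. The stomach and pylorus markers were also lowest there, with a sum of 56441 in a duodenal range of 56441 to 86606, and 10 of their 13 probe sets had their lowest duodenal value in that tumor. Gast, the antral hormone gastrin, was at 134.6 there, against 2805 in duodenal tumor 1 and 1319.9 in duodenal tumor 3. Sox2, a foregut factor, was at 301, against 733.8 and 799.8. The summed smooth muscle markers were lowest in duodenal tumor 2, at 5553, where the duodenal range was 5553 to 9471 and the cecal range 6426 to 7998. Fibroblast markers summed to 16171 in that tumor, within the duodenal range of 14607 to 18040, and blood cell markers to 6439, the duodenal maximum, against 6770 to 8425 in cecal tumors. The part of these in the Hoxa values was not tested.

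Of 8128 other tested genes, the 5 whose values over the 6 arrays correlated best with Hoxa9 were Hoxa5 (Pearson r = 0.994), Ola1 (0.991), Hoxa7 (0.99), Gabpa (0.986) and Tmem176a (0.985). The correlation rests on the contrast of 2 low and 4 high tumors and describes these arrays. Hoxa5 and Hoxa7 were dim in the low tumors, while Ola1 was bright in all 6 and ran from 709.3 to 953.4.

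The 8 Hoxc probe sets, for Hoxc4, Hoxc5, Hoxc6, Hoxc8, Hoxc9 and Hoxc13, were dim in every tumor, between 0.6 and 83.5. None passed without the filter (limma). The smallest adjusted p, 0.163, was that of Hoxc8, with 1, 11.4 and 22.9 in the duodenal tumors, against 54.8, 60 and 19.9 in the cecal ones. Low intensity on an array does not show that a gene is off.

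Among the TALE partners of Hox proteins, Meis2 and Pbx3 were lower in cecal tumors. Of 9 genes listed, 8 were on the array and 6 probe sets of 4 genes were tested, of which 2 fell and 0 rose (limma; 2 and 0 at an unadjusted p under 0.05), where 4.07% of all tested probe sets fell and 5.24% rose. The list's median log2 fold was -0.03, and that of all tested probe sets -0.042. Meis2, a cofactor that also marks proximal positions in limbs, had 634.6, 492.6 and 967.7 in the duodenal tumors, against 36.2, 33.8 and 59.5 in the cecal ones. It was dim in all cecal tumors, which puts the duodenal level at least 6.98-fold above the cecal (limma adjusted p = 0.000254). Pbx3 had 288.5, 299.1 and 375.1 in the duodenal tumors, against 112.5, 172.4 and 109 in the cecal ones, lower in the cecum without overlap (log2 fold -1.21 ± 0.21 SE, limma adjusted p = 0.00952).

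Other TALE members did not pass. Both tested Pbx2 probe sets had a log2 fold of 0.12, and those of Pknox1 had 0.18 and -0.17. Meis1, too dim for the test, had 102.9, 44.4 and 171.4 in the duodenal tumors, against 31.7, 20 and 31 in the cecal ones (limma adjusted p = 0.107 without the filter). Unlike Hoxa5, Hoxa7 and Hoxa9, Meis2 and Pbx3 in duodenal tumor 2 lay on the duodenal side.

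Cdx and ParaHox genes, relatives of the Hox family, differed between sites in both directions. Of 5 tested probe sets of 3 genes, 3 were higher and 2 lower in the cecum (median log2 fold 1.57), beside 5.24% and 4.07% of all tested probe sets. Cdx1, which also stands among the epithelial markers, had 503.5, 671.2 and 397.6 in the duodenal tumors, against 1195.5, 1653 and 1895 in the cecal ones (log2 fold 1.57 ± 0.23 SE, limma adjusted p = 0.00496). Cdx2 rose by both probe sets, with log2 folds of 1.63 ± 0.16 and 2.21 ± 0.22 (SE, limma adjusted p = 0.000783 and 0.000832). In duodenal tumor 2 the brighter Cdx2 probe set was at 253.5, between the 286.1 and 218.7 of duodenal tumors 1 and 3. The other Cdx2 probe set, dim in all duodenal tumors, was highest of them there, at 95 against 74.4 and 50.7. Cdx1, at 671.2, was also highest there among the duodenal tumors. All these values were below every cecal tumor. Pdx1, the ParaHox factor of duodenum and pancreas, fell by both probe sets (limma adjusted p = 1.26e-05 and 0.000377) and was 845.9 in duodenal tumor 2 by the brighter. Cdx4, Gsx1 and Gsx2 were dim in all tumors.

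Evx1, a homeobox gene beyond the Hoxa13 end of the Hoxa cluster, was the 1 tested gene of 11 homeobox genes that lie beside Hox clusters or belong to related families. It had 24.7, 96.5 and 9.2 in the duodenal tumors, against 114.6, 178.6 and 205.5 in the cecal ones. Duodenal tumor 2 was again the highest duodenal tumor, though just under the brightness level. The difference did not pass (log2 fold 1.87 ± 0.51 SE, limma adjusted p = 0.0586), but did with the replicate number as a block (0.0308) and without duodenal tumor 2 (0.00478). Hoxa11os, the antisense transcript at Hoxa11, named after its values were seen, had 23.3, 10 and 39.3 in the duodenal tumors, against 81.6, 83.4 and 307.6 in the cecal ones. Whether the platform keeps antisense and sense signal apart was not checked.

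**Figure D5:**
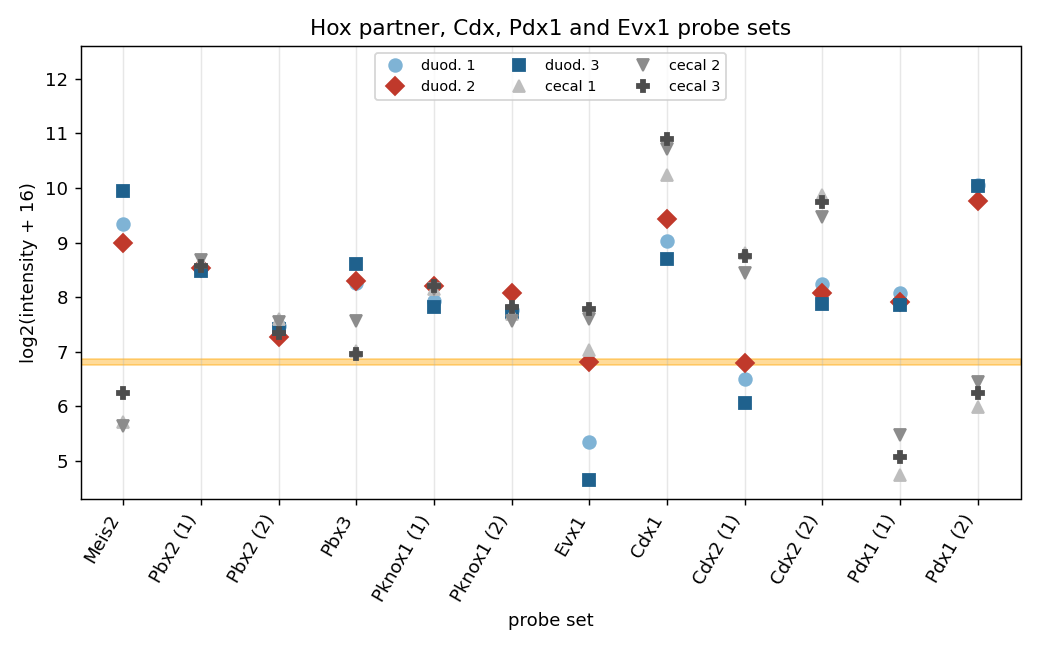
Tested probe sets of TALE partners, Evx1, Cdx and Pdx1 genes against log2(intensity + 16), with 1 symbol per tumor and the orange band of the arrays' 40th percentiles. Meis2 and Pdx1 are low in all 3 cecal tumors, Cdx1 and Cdx2 are high there, and duodenal tumor 2 stands apart from the other duodenal tumors in Evx1.

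Among chromatin regulators of Hox clusters the share that passed was near that of all tested probe sets. Of 34 tested probe sets of 18 Polycomb genes, which keep Hox genes silent, 2 fell and 0 rose in the cecum (limma; 6 lower and 0 higher at an unadjusted p under 0.05; median log2 fold -0.01), beside 4.07% and 5.24% of all tested probe sets. Cbx6, a subunit that binds methylated histone tails, was at 631.8 ± 52.4 in duodenal and 271.1 ± 57.3 (SD, n = 3 each) in cecal tumors (limma adjusted p = 0.00491). Phc1 was at 347.3 ± 12.5 and 222.1 ± 28.3 (limma adjusted p = 0.0356), a call lost without the filter (0.0618) and when any single tumor was left out (0.064 to 0.101). Of the rest, 3 Pcgf6 probe sets had log2 folds of -0.48, -0.62 and -0.47 (limma adjusted p = 0.0523, 0.0558 and 0.0973). Of 17 tested probe sets of 10 Trithorax and Hox-activating genes, none passed (limma; 0 higher and 2 lower at an unadjusted p under 0.05; median -0.08). The smallest adjusted p were those of Ash2l, Mllt3 and Kmt2a (0.0913, 0.109 and 0.245), all with negative folds.

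Signals that set Hox domains in the embryo were tested too. Of 15 probe sets of 11 retinoic acid genes, 1 fell and 0 rose (limma; 2 and 1 at an unadjusted p under 0.05; median log2 fold -0.30), again near the 4.07% and 5.24% of all tested probe sets. This was Rdh10, which makes retinal from retinol, at 4018.7 ± 49.1 in duodenal and 2291.7 ± 559.9 (SD, n = 3 each) in cecal tumors (limma adjusted p = 0.0213). Its call was lost without duodenal tumor 1, 2 or 3 (0.0643, 0.0502 and 0.0614) or cecal tumor 2 (0.0676). With the replicate number as a block, Rarb and Stra6 were also lower (0.0464 and 0.0171). Rarb, a retinoic acid receptor that responds to its own ligand, had 91.3, 609.4 and 199.4 in the duodenal tumors, against 52, 111.7 and 102.1 in the cecal ones, highest in duodenal tumor 2 (limma adjusted p = 0.23). Rxra and Aldh1a2, next in order, had adjusted p of 0.0695 and 0.135.

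Of 10 probe sets of 7 genes for growth factors and other axial regulators, none passed (limma; 2 higher and 0 lower at an unadjusted p under 0.05; median log2 fold 0.30). Nkx2-3 came nearest (log2 fold 1.00, limma adjusted p = 0.0895), followed by Ihh and Wnt5a (0.204 and 0.224). Without the filter, Shh and Six2, dim in all tumors, were lower in the cecum (limma adjusted p = 0.0254 and 0.0232). Among 12 probe sets of 9 other regulators, 3 rose and 0 fell (limma; median 0.12), beside 5.24% and 4.07% of all tested probe sets. All 3 were of Smad4, a mediator of BMP and TGF-beta signals, with log2 folds of 0.74, 0.48 and 0.59 (limma adjusted p = 0.0143, 0.0314 and 0.0387). No Smad4 call held under all leave-one-out fits. Without cecal tumor 1 the adjusted p were 0.0588, 0.0996 and 0.125.

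Some markers of other cells moved with the sites beside the Hox genes. Of 18 probe sets of 10 fibroblast genes, 8 were higher in cecal tumors and 0 lower (limma), beside 5.24% and 4.07% of all tested probe sets, with a summed intensity of 14607 to 18040 in duodenal and 22532 to 27427 in cecal tumors. Vim, a filament protein of mesenchyme, had log2 folds of 0.86 to 0.99. None of 10 smooth muscle, 5 endothelial or 6 blood cell probe sets passed (limma; 0, 1 and 2 higher and 0 lower at an unadjusted p under 0.05). In the other direction, the 1 tested probe set of the enteric neuron and glia list, for S100b, was lower in the cecum, where it was dim, by a bound of at least 1.7-fold (limma adjusted p = 0.00138). Also lower in the cecum was the 1 tested of the pancreas list, for Cela1 (log2 fold -1.56 ± 0.27 SE, limma adjusted p = 0.0102). Cela1 does not stand for that list, whose 13 probe sets had a median log2 fold of 0.01 without the filter. By their brightest probe set, 5 of its 7 genes on the array were dim in all tumors. The summed epithelial markers were 52384 to 59800 in duodenal and 63397 to 66372 in cecal tumors. No fibroblast marker was dim on all arrays. The part of these markers in the Hox differences was not tested.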

How the data were processed

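Intensities of 22690 probe sets on 6 arrays, 1 tumor each, were analysed as deposited. Per the submitters' processing notes the authors used MAS5, of which neither version nor scaling target is named here. The mean between the 2nd and 98th percentiles was 499.1 to 499.9 on every array, so no further scaling was applied. The log2 scale was computed here from the deposited intensities.

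Names came from the platform annotation, updated by gene ID through RefSeq (GRCm38.p6). Of 22690 probe sets, 691 named several genes, and 64 controls were left out. Groups and replicate numbers come from the titles.

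Tests used limma 3.58.1 in R 4.3.3 (lmFit, eBayes with trend, two-sided, threshold 0.05, offset 16). A site dim on all 3 arrays was set to the 40th percentile for bounds, given as "at least". For tumors sharing a number, deviations from their group's mean had correlations of 0.274, 0.299 and 0.203. Between tumors of different numbers they were -0.2 to -0.0261. Deviations within a group balance out, so the values for shared and different numbers are not independent. Whether the numbers pair the tumors is therefore not settled, and no label names what tumors of a number share. The main fit takes the tumors as independent, without a block, and a fit with the number as a block was run beside it. In simulated data with 200 of 13866 probe sets changed, 53% of 2-fold and 89% of 4-fold changes were called, 0 with the wrong sign.

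The Hox members and all gene lists were chosen with earlier results of these data known. Values per tumor are given for Hox genes that passed, were bright in all tumors of a site or spanned over 8-fold within one in deposited intensity, and lists by members that passed and up to 3 next in p. Alternatives covered the offset, filter, normalization, variance model, array weights, block, threshold, gene means and each array left out. The search for the shorter motif, the fit without filter combined with the block, that without duodenal tumor 2 and the floor for single tumors were added after the data were seen. Figures used matplotlib 3.10.9.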

Additional observations from a re-analysis of the deposited data

How the results depend on the processing

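Each of the 14 tested Hox probe sets kept its direction under all 18 or 19 alternatives run for it. These 14 passed the filter through the cecal arrays, which the alternatives reuse, so the kept direction is no support. The 9 Hox probe sets called in all tumors were also called with either other offset, quantile normalization, median centring, no intensity trend, array weights or the replicate number as a block. The block changed no Hox call (9 in both fits). It gave 7 higher and 9 lower calls in the lists below, beside 6.12% and 5.21% of all tested probe sets. No Hox probe set was called lower in the cecum under any alternative. Leaving out 1 tumor gave 7 to 13 Hox calls, the highest without duodenal tumor 2, where 8.61% of all tested probe sets passed. Without the filter and that tumor together the count was 14 of 37, beside 4.75% of all probe sets. That alternative was added after the data were seen. The fit without the filter kept 8 of the 9 calls.

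In the partner and regulator lists, 6 probe sets were higher and 7 lower in the cecum, beside 5.24% and 4.07% of all tested probe sets. The numbers tested are given by list above. The higher count was 3 to 5 with 1 tumor left out, 3 with gene means and 3 at an adjusted p below 0.01, while the lower count was 5 to 6 with 1 tumor left out and 11 with array weights. Over all probe sets, 1290 calls became 1939 with array weights, 506 at an adjusted p below 0.01 and 658 to 1194 with 1 tumor left out. With 3 tumors a site and most Hox probe sets under the 40th percentile, signal over background limits what can be seen of the Hoxc genes and of the ends of the clusters.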
